A study of Mus musculus with 3 samples.

Results

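Genes better known from the pancreas and the stomach than from the gut, 10 in all, were read in sorted epithelial cells of the mouse upper small intestine. They are 10 of the 24217 gene symbols that the deposited transcripts could be given. Of these, 5 encode digestive enzymes of the exocrine pancreas (Prss2, Ctrb1, Cela2a, Cpa1 and Pnlip) and 5 encode secreted peptides of the gastric mucosa (Tff1, Tff2, Gkn1, Gkn2 and Gkn3). They were picked with their levels in these same libraries known, so their differences are given as a description, without a test. All 10 passed the minimum level in the comparisons with reporter-negative cells, but Prss2, Cela2a and Cpa1 passed it in both only through their level in those cells, as Gkn1 did in 1, so they had to differ.

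The libraries are 3 pools of RNA from C57BL/6 mice, 1 per group. GIP-GFP holds green cells of a reporter line that express the hormone GIP. Ngn3-TOMATO and Ngn3-negative are the red and the non-red epithelial cells of male mice that carry Neurogenin3 (Ngn3)-Cre and the ROSA26-LoxP-STOP-LoxP-tomato indicator, both gated on absence of the blood cell marker CD45. The tomato label stays on in every descendant of a cell in which the Cre was active, so that library is a lineage and not only cells that express Ngn3. The number and age of the mice in a pool are not given in the sources used here. Neither the sex of the mice nor such a CD45 gate is stated for GIP-GFP. All groups came from the villus fraction of tissue treated with EDTA and collagenase.

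The exocrine pancreas makes its enzymes in acinar cells, as inactive precursors that become active in the duodenum. There enteropeptidase, a protease of the enterocyte brush border encoded by Tmprss15, cuts trypsinogen to trypsin, and trypsin then activates the other precursors. The trefoil factors and gastrokines are small secreted proteins of mucous cells. Tff1 belongs to the surface mucous cells of the stomach, Tff2 to gastric mucous neck cells and the duodenal glands of Brunner, and Tff3 to intestinal goblet cells. Gkn1 and Gkn2 are secreted by the gastric surface, where Gkn2 can pair with Tff1.

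Listed transcripts drew 592.1 to 1380 Mb of read bases per library, and the libraries held 11927 to 13076 genes at 1 scaled FPKM or more. Scaled FPKM is the deposited FPKM, a level per transcript length, summed over the transcripts of a gene and divided by 1 number common to all libraries. Gip itself stood at 241577 in GIP-GFP cells, 28037 in Ngn3-TOMATO cells and 730.1 in Ngn3-negative cells, and took 23.2% of the GIP-GFP total. Neurog3, the gene behind the names of the other libraries, was at 4.48, 24 and 13.9 scaled FPKM, so the library labelled Ngn3-negative is not free of Neurog3 mRNA. The sort was on the tomato label. Over the 10 marker genes of each kind, enteroendocrine genes summed to 58958, 81912 and 1170 in the same order of libraries and enterocyte genes to 10681, 7662 and 37452. The study's text places goblet and Paneth cells in the Ngn3-negative population, but their genes summed highest in Ngn3-TOMATO (goblet 5355, 170909 and 30908, Paneth 3359, 31858 and 7415), so that library goes in part against its label as enteroendocrine. Ranges in brackets after a level are the limits the authors deposited with it, and those after a log2 ratio are 95% counting intervals made from these limits. They cover counting within 1 library and nothing about other mice or sorts.

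All 5 pancreatic enzyme genes were read at 18.3 to 54.8 scaled FPKM in Ngn3-negative and at 3.10 or less, or listed at 0, in both reporter libraries. Prss2, a trypsinogen gene, was at 0.684 (0 to 1.47) in GIP-GFP cells, 0.652 (0.159 to 1.15) in Ngn3-TOMATO cells and 25.1 (21.6 to 28.6) in Ngn3-negative cells. Ctrb1, a chymotrypsinogen gene, was at 2.78 (1.17 to 4.38), 3.10 (2.04 to 4.17) and 53.9 (48.9 to 58.9) in the same order. Only Ngn3-negative was high for these proteases, and its limits did not overlap those of either reporter library.

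Cpa1, which encodes a carboxypeptidase that trims peptides from their end, was at 0.414 (0 to 0.829) in GIP-GFP cells, 0.912 (0.523 to 1.30) in Ngn3-TOMATO cells and 18.3 (16.3 to 20.3) in Ngn3-negative cells. Pnlip, the gene of the main triglyceride lipase of pancreatic juice, was at 1.10 (0.398 to 1.79), 1.45 (0.950 to 1.95) and 25.2 (22.8 to 27.6). Cela2a, an elastase gene, was at 54.8 (49.9 to 59.7) in Ngn3-negative and was listed at 0 in both reporter libraries. Ngn3-negative was again the high library for Cpa1 and Pnlip, and the reporter libraries overlapped each other. Ctrb1 and Cela2a lay above 72.8% and 73.2% of the genes detected in Ngn3-negative, and Cpa1, the lowest of the enzyme genes there, above 41.6%.

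**Figure D1:**
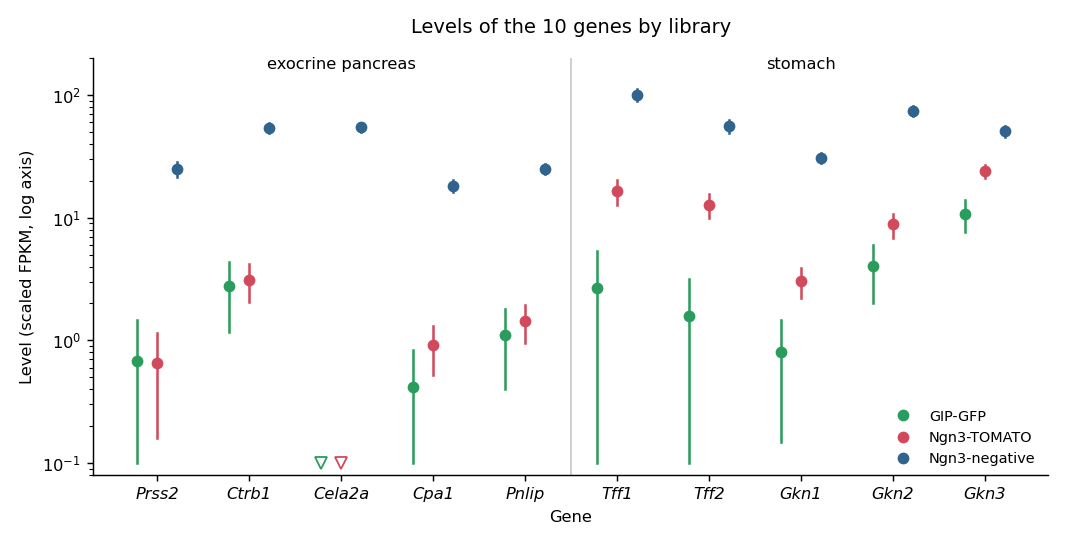
Level of each gene in each library, in scaled FPKM on a log axis; points are the deposited values, bars their deposited limits (bars that reach 0 end at the lower edge) and open triangles values listed at 0. Ngn3-negative is highest for all 10 genes; the reporter libraries overlap for Prss2, Ctrb1, Cpa1 and Pnlip and stand apart for the gastric genes, with Ngn3-TOMATO the higher.

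The first comparison, Ngn3-TOMATO over Ngn3-negative, sets the cells that carry the tomato label, with the goblet and Paneth signal given above, against unlabelled epithelial cells of the same mouse line. Log2 ratios were taken after 1 scaled FPKM was added to each level, which makes the difference of low genes look smaller. They were -3.98 (-4.45 to -3.51) for Prss2, -3.74 (-4.14 to -3.35) for Ctrb1, -3.42 (-3.74 to -3.10) for Pnlip and -3.33 (-3.66 to -3.01) for Cpa1, or 15.8-fold, 13.4-fold, 10.7-fold and 10.1-fold lower on this scale. The 4 enzyme genes with a level above 0 in both libraries were at least 2-fold lower, where 10% of all 13385 genes compared were, and also at least 4-fold lower, where 1.90% were. Nothing is read from that count because the genes were picked on this contrast. Their median was -3.58 and that of all genes 0.03. With Cela2a, for which no fold can be given, entered at its listed 0, the median was -3.74.

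GIP-GFP over Ngn3-negative compares sorts from different mouse lines, so line and cell type cannot be told apart in it. Nor can any difference in sex or CD45 gate, which are not stated for GIP-GFP. It shares the Ngn3-negative library with the first comparison, and the ratios of both are therefore linked. The log2 ratios were -3.96 (-4.66 to -3.25) for Prss2, -3.86 (-4.49 to -3.23) for Ctrb1, -3.77 (-4.22 to -3.32) for Cpa1 and -3.64 (-4.14 to -3.15) for Pnlip, with a median of -3.82 over these genes (-3.86 with Cela2a at its listed 0) and of 0.07 over all genes. In this comparison 13.8% of 13412 genes were at least 2-fold lower and 2.81% at least 4-fold lower, as were these 4 enzyme genes. Between the reporter libraries only Ctrb1 and Pnlip reached 1 scaled FPKM, with log2 ratios of GIP-GFP over Ngn3-TOMATO of -0.12 (-0.84 to 0.60) and -0.22 (-0.79 to 0.34), intervals that include 0.

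Few reads stand behind the low values. From the deposited limits, the GIP-GFP levels rest on an estimated 3 fragments for Prss2, 4 for Cpa1, 10 for Pnlip and 12 for Ctrb1, and the Ngn3-TOMATO levels on 7, 22, 34 and 34. In Ngn3-negative the estimates were 208, 340, 457 and 462, and 508 for Cela2a. The limits of the reporter libraries overlapped for Prss2, Cpa1, Pnlip and Ctrb1, so no order between these libraries is given for them.

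The zeros of Cela2a need care. In all, 22 genes at 10 scaled FPKM or more in Ngn3-negative, out of 8639, were listed at 0 in both reporter libraries, among them genes that most cells use, such as the ribosomal protein gene Rpl31 (27.3 in Ngn3-negative) and the RNA exosome genes Exosc8 (35.6) and Exosc6 (30.5). A listed 0 can thus be a failed estimate, although the deposited status of Cela2a was OK in both reporter libraries. The same care applies to the zeros of Dnase1, Gast, Ins1 and Ins2 given below. The 3′ end of Cela2a overlaps that of Casp9 on the other strand by 1013 bases in the deposited models, Casp9 was at 22.5, 19.4 and 20.1 scaled FPKM in the same order of libraries, and no use of strand is stated. Of the 36-base words of the Cela2a transcript, 26.6% also occur in transcripts annotated to Ctrc or Casp9, on either strand. The same count was 17.1% for Prss2, whose copies Try4, Try5 and Try10 hold them, and 0% for Ctrb1, Cpa1 and Pnlip. By this count Ctrb1, Cpa1 and Pnlip share no run of 36 bases with the annotated transcripts of another gene.

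Because the enzyme genes were high in the same library, the 200 bases before their start sites were read, from RefSeq on GRCm38.p6, the assembly also called mm10. The table used holds 8 of the 10 genes. Acinar genes are classic targets of PTF1, a complex that binds an E-box (CANNTG) together with a partner site (TTTCCC). Both were searched for by these letters on both strands, and matches are in capitals, with TTTCCC on the opposite strand showing as its reverse complement. The sequences shown, 5′ to 3′ along each gene, are those of the 4 enzyme genes with a TTTCCC match and, for contrast, that of the gastric gene Gkn1, which has none.
Prss2 (chr6:41521576-41521775, plus strand): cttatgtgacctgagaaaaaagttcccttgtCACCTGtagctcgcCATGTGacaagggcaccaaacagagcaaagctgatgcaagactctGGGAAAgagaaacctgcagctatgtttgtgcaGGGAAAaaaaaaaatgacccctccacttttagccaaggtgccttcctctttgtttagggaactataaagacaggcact
Ctrb1 (chr8:111691011-111691210, minus strand): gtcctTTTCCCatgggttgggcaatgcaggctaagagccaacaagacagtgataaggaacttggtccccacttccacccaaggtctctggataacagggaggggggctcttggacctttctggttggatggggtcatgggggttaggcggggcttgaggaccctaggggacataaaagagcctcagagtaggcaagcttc
Cela2a (chr4:141826006-141826205, minus strand): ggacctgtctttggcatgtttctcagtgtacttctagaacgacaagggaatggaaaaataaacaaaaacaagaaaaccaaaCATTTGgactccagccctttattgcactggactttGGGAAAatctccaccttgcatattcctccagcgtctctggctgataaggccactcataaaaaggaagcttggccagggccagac
Cpa1 (chr6:30639018-30639217, plus strand): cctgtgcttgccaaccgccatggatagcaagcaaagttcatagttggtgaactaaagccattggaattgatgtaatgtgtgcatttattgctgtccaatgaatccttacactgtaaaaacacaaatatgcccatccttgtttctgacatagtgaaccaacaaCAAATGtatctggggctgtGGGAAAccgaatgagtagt
Gkn1 (chr6:87350916-87351115, minus strand): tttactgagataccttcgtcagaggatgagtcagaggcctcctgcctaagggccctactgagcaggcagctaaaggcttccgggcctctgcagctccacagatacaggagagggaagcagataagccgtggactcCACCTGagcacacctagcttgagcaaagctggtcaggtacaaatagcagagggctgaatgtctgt

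Prss2 holds 2 E-boxes and 2 TTTCCC matches, Cela2a and Cpa1 hold 1 of each, and Ctrb1 holds 1 TTTCCC and no E-box. Pnlip holds neither, and has 2 matches of the GATA factor letters AGATAA at 124 and 44 bases before its start. Among 27025 upstream windows of the same length, 1 per gene, 57.9% hold an E-box, 17.8% TTTCCC, 9.89% both, 7.98% AGATAA and 5.09% the HNF1 letters GTTAAT, which none of the 8 genes with a window holds. No match overlaps another. Of the gastrokine genes, Gkn1 holds 1 E-box and 1 AGATAA, Gkn3 holds 1 TTTCCC, and Gkn2 none of these. Tff1 and Tff2 are the genes without a window. A match is a string of letters in a window and not a bound site. Ptf1a, which encodes a DNA-binding part of PTF1, was listed at 0 in all 3 libraries, and Rbpjl, the gene of another part, was at 0.151 or less.

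The remaining genes of the exocrine pancreas divided into those that followed the enzyme genes and those that did not. The list, chosen with earlier results of these data known, holds 33 further genes, of which 22 reached 1 scaled FPKM in the first comparison. Of these 11 were at least 2-fold lower in Ngn3-TOMATO (10% of all genes), 5 at least 2-fold higher (19.2%) and 6 in between. Their median log2 ratio was -1.11, or -0.86 without Dnase1, which is listed at 0 in Ngn3-TOMATO. Under the alternatives described at the end this median lay between -1.59 and -0.58. In GIP-GFP 16 of 22 were lower (13.8% of all genes) and 3 higher (21%) than in Ngn3-negative, with a median of -1.77.

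The secreted hydrolases made up most of those that were lower. Cpb1, a carboxypeptidase gene, was at 0.611 in GIP-GFP cells, 0.733 in Ngn3-TOMATO cells and 14.8 in Ngn3-negative cells, and Cel, the gene of bile salt-dependent lipase, at 0.319, 0.696 and 11.9. The elastase gene Cela3b was at 0.449, 0.362 and 9.62. These 3 genes had the shape of the enzyme genes above, with both reporter libraries under 1. Cpb1, Cel, Cela3b, Try4, Try5 and Amy2b, all among the lower genes counted above, passed the minimum only through Ngn3-negative. Their direction was thus set in advance.
The chymotrypsin-like gene Ctrl was at 4.63, 5.79 and 22.3 scaled FPKM, and the lipase-related gene Pnliprp1 at 0.589, 3.05 and 10.6, both highest in Ngn3-negative. The trypsinogen genes Try5 (0.236, 0.193 and 5.25) and Try4 (0.240, 0.288 and 3.21) share 63.1% and 78.6% of their 36-base words with other genes, mostly each other, so the split among them is uncertain. Amylase reads were listed under Amy2b (0, 0.0503 and 11.5), annotated as a pseudogene, which shares 54.5% of its words with other genes, chiefly the other amylase genes. The amylase gene Amy2a5 and the trypsin genes Prss1 and Prss3 were listed at 0 throughout.

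Other genes known from pancreatic juice were higher in Ngn3-TOMATO, or abundant in every library. Clps, the gene of colipase, the cofactor of the lipase that Pnlip encodes, was at 68.5 scaled FPKM in GIP-GFP cells, 1115 in Ngn3-TOMATO cells and 228.4 in Ngn3-negative cells. The lipase-related gene Pnliprp2 was at 102.2, 144.6 and 28.3, and the kallikrein gene Klk1 at 135.0, 392.6 and 111.7. All 3 were highest in Ngn3-TOMATO, so lipase and cofactor stood in opposite order between Ngn3-TOMATO and Ngn3-negative. In GIP-GFP both Clps and Pnlip were lower than in Ngn3-negative. Clps was lowest in GIP-GFP, whereas the limits of Pnlip overlapped between the reporter libraries.
Spink1, an inhibitor of trypsin, was at 839.4, 403.3 and 2309, the highest of the list in GIP-GFP and Ngn3-negative and after Clps in Ngn3-TOMATO. The elastase gene Cela1 was at 29.2, 26.2 and 39.8, within 2-fold in each comparison. Pdia2 and Pla2g1b, a protein-folding enzyme and a phospholipase, were highest in GIP-GFP, at 15.8 and 18.2 against 1.34 and 1.83 in Ngn3-negative. The zymogen granule gene Sycn was at 1.49, 13.0 and 20.7, low in GIP-GFP alone. Dnase1 was listed at 0 in Ngn3-TOMATO between 62.9 and 233.4 in the other libraries.
Among regulators, Nr5a2, a nuclear receptor that also acts in gut crypts, was at 9.70, 13.2 and 35.6, and Bhlha15, a factor of secretory cells, at 3.71, 11.5 and 3.21. The brush border gene Tmprss15, whose product starts the activation of these enzymes, was itself at 2.13, 1.5 and 22.7 scaled FPKM, highest in Ngn3-negative like the enzyme genes.

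**Figure D2:**
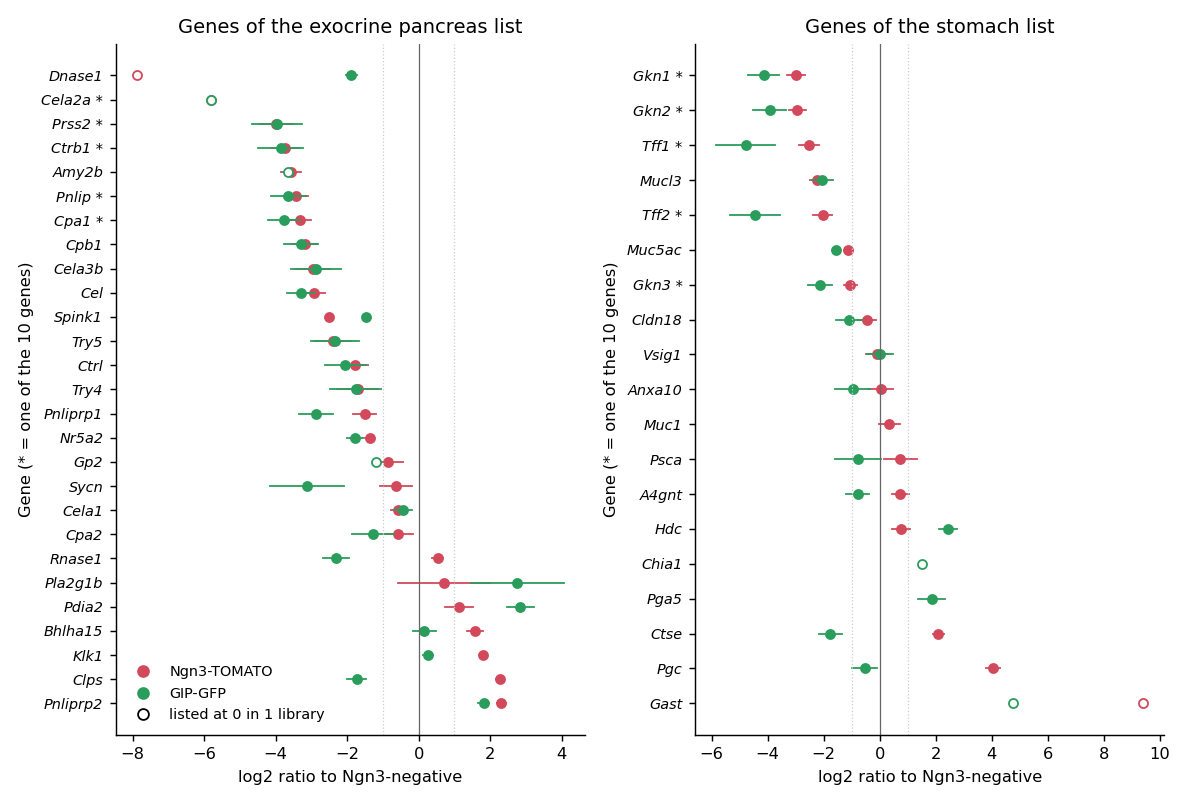
Log2 ratio to Ngn3-negative for each gene of the exocrine pancreas and stomach lists that reached 1 scaled FPKM, in Ngn3-TOMATO (red) and GIP-GFP (green); bars are 95% counting intervals, open circles mark a value listed at 0 in 1 library, and dotted lines mark 2-fold. In Ngn3-TOMATO, Prss2, Ctrb1, Pnlip and Cpa1 lie between -3.98 and -3.33 and Clps, Klk1 and Pnliprp2 above 0; in the stomach list Gkn1, Gkn2 and Tff1 lie lowest there, and Pgc, Ctse and Gast above 0.

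The gastric peptide genes were higher than the enzyme genes in each library by median level, and all 5 stepped down from Ngn3-negative to Ngn3-TOMATO to GIP-GFP. Tff1 (uc008buo.1, chromosome 17, 31161396 to 31165053) was at 2.69 (0.0551 to 5.33) scaled FPKM in GIP-GFP cells, 16.6 (12.7 to 20.5) in Ngn3-TOMATO cells and 101.1 (90.0 to 112.1) in Ngn3-negative cells, where it lay above 85.7% of the genes detected. Tff2 (uc008bul.1, chromosome 17, 31141062 to 31144282) was at 1.59 (0 to 3.19), 12.8 (9.95 to 15.6) and 55.7 (49.0 to 62.4). For both, no 2 libraries overlapped, with Ngn3-negative first and GIP-GFP last.

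The trefoil genes lie side by side, and the intestinal member of the family behaved differently. Tff3, 11.4 kb from Tff2 and 31.7 kb from Tff1, was at 2103, 58918 and 10344 scaled FPKM, highest in Ngn3-TOMATO. Its log2 ratio of Ngn3-TOMATO over Ngn3-negative was 2.51, against -2.54 (-2.89 to -2.18) for Tff1 and -2.04 (-2.38 to -1.70) for Tff2. Within the family, Tff1 and Tff2 made 0.963% and 0.530% of the summed level in Ngn3-negative but 0.0282% and 0.0217% in Ngn3-TOMATO. The antisense gene Gm15318 overlaps Tff1 by 1657 bases and shares 23.1% of its 36-base words, and was at 0.455 or less in each deposited model.

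The gastrokine genes sit together on chromosome 6, with Gkn2 and Gkn3 3.76 kb apart and Gkn1 22.4 kb from Gkn2. Gkn2 (uc009cti.1, 87373365 to 87379494) was at 4.01 (2.00 to 6.01) in GIP-GFP cells, 8.86 (6.91 to 10.8) in Ngn3-TOMATO cells and 74.9 (68.4 to 81.3) in Ngn3-negative cells. Gkn1 (uc009cth.1, 87345653 to 87350915) was at 0.811 (0.149 to 1.47), 3.04 (2.21 to 3.87) and 31.0 (27.9 to 34.0). Their orders were the same as those of the trefoil genes, and again no 2 libraries overlapped.
Gkn3 (uc009ctj.1, 87383319 to 87388935) was the least uneven of the 10 genes, at 10.8 (7.60 to 14), 24.1 (21 to 27.1) and 50.9 (45.7 to 56.1). It made 69.2% of the gastrokine sum in GIP-GFP and 66.9% in Ngn3-TOMATO, but 32.5% in Ngn3-negative, where Gkn2 led with 47.8%. It was also the most abundant of the 10 genes in both reporter libraries. None of the 36-base words of the gastrokine transcripts or of Tff2 occurs in another gene.

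Against Ngn3-negative, the log2 ratios of Ngn3-TOMATO were -2.98 (-3.31 to -2.66) for Gkn1, -2.94 (-3.25 to -2.63) for Gkn2 and -1.05 (-1.28 to -0.82) for Gkn3. The median of the 5 gastric genes was -2.54. Those of GIP-GFP were -4.79 (-5.83 to -3.75) for Tff1, -4.45 (-5.35 to -3.55) for Tff2, -4.14 (-4.69 to -3.60) for Gkn1, -3.92 (-4.51 to -3.33) for Gkn2 and -2.13 (-2.55 to -1.71) for Gkn3, with a median of -4.14. All 5 were at least 2-fold lower in both comparisons (10% and 13.8% of all genes), Gkn3 by 2.07-fold in the first, and 4 and 5 of them at least 4-fold lower (1.90% and 2.81%). The genes were picked on these contrasts, so nothing is read from the counts. The GIP-GFP levels of Tff1 and Tff2 rest on an estimated 4 fragments each and that of Gkn1 on 6, against 16 for Gkn2 and 45 for Gkn3.

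GIP-GFP over Ngn3-TOMATO compares the GIP cells with the whole lineage, again across mouse lines. For the gastric genes the log2 ratios were -2.41 (-3.34 to -1.47) for Tff2, -2.25 (-3.33 to -1.17) for Tff1, -1.16 (-1.76 to -0.55) for Gkn1, -1.08 (-1.52 to -0.65) for Gkn3 and -0.98 (-1.62 to -0.33) for Gkn2, and none of these intervals includes 0. Of the 5 gastric genes 4 were at least 2-fold lower in GIP-GFP, beside 8.80% of all 13672 genes, and Tff1 and Tff2 at least 4-fold lower, beside 3.23%. The intervals of Gkn1, Gkn2 and Gkn3 overlap those of Ctrb1 and Pnlip, the only enzyme genes with a ratio here, and a difference between the gene groups was not tested. With a pseudocount of 5 only Tff1 and Tff2 were at least 2-fold lower, and Gkn1, Gkn2 and Gkn3 stood at -0.47, -0.62 and -0.88.

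**Figure D3:**
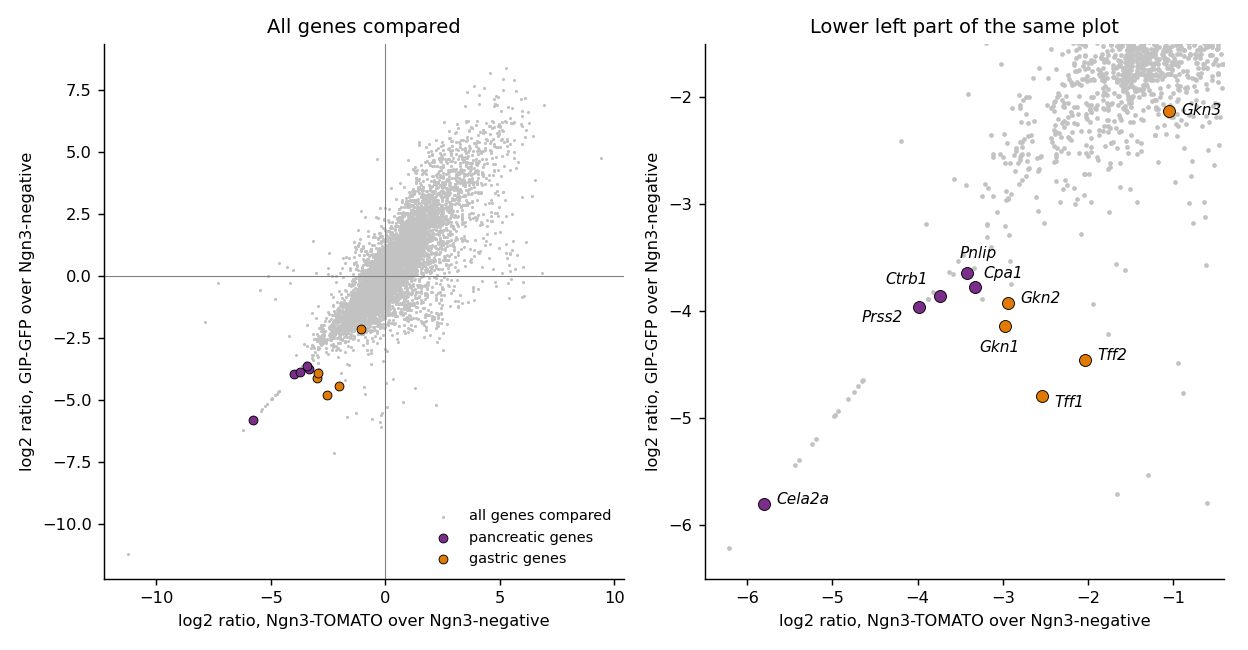
Log2 ratio of Ngn3-TOMATO (horizontal) and of GIP-GFP (vertical) over Ngn3-negative for every gene compared (grey), with the pancreatic genes in purple and the gastric genes in orange; the right panel enlarges the lower left. Both axes share the Ngn3-negative library, which by itself pulls points along the diagonal; Prss2, Ctrb1, Cpa1 and Pnlip lie close together near the diagonal and Tff1 and Tff2 below it.

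The other genes of the stomach list went both ways in each comparison. The list was chosen in the same way and holds 23 further genes, of which 12 could be compared between Ngn3-TOMATO and Ngn3-negative. Of these 2 were lower (10% of all genes), 3 higher (19.2%) and 7 in between. Their median log2 ratio was 0.54, or 0.34 without Gast, which is listed at 0 in Ngn3-negative. In GIP-GFP over Ngn3-negative 4 of 13 were lower (13.8% of all genes) and 4 higher (21%), with a median of -0.78. In GIP-GFP over Ngn3-TOMATO 6 of 11 were lower (8.80% of all genes) and 3 higher (1099 of all 13672 genes). The median there was -1.01, beside -1.16 for the 5 gastric genes. The lower genes of the first comparison were Mucl3 and Muc5ac. Both passed the minimum against Ngn3-negative only through that library, so their direction was set in advance. Mucl3 was at 0.455 scaled FPKM in GIP-GFP cells, 0.282 in Ngn3-TOMATO cells and 5.04 in Ngn3-negative cells, and Muc5ac, the mucin of the gastric surface, at 0.0334, 0.405 and 2.06. Muc6, the mucin of gastric and Brunner glands, stayed under 1 at 0.0345, 0.340 and 0.522, in the same order.

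Pgc, the pepsinogen C precursor gene of gastric glands, was at 5.78, 161.2 and 8.81 scaled FPKM, and Ctse, a cathepsin gene of the gastric surface, at 1.57, 35.8 and 7.67. Gast, the gastrin precursor gene, was at 26.1 and 676.7 in the reporter libraries with a listed 0 for Ngn3-negative. All 3 were highest in Ngn3-TOMATO. Hdc, which makes histamine, was highest in GIP-GFP (14.5, 3.83 and 1.84).
Several other genes of the stomach were at or near 0, though Pga5, a pepsinogen gene, was at 2.85 and Chia1, a chitinase gene, at 1.87 in GIP-GFP. The proton pump gene Atp4b, the gastric lipase gene Lipf and the stomach regulator Barx1 were listed at 0 in all libraries, Atp4a, the other pump subunit, reached 0.898, Gif, the intrinsic factor gene, 0.690, and Sox2 0.0921.

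By the distance between pairs of log2 ratios over Ngn3-negative, the 5 genes nearest to the enzyme genes' median pair, among 10320 genes at 10 scaled FPKM or more, were Rangrf (0.09), Rad54l (0.14), Tsr3 (0.14), Glt28d2 (0.25) and Amy2b (0.27). The first 4 were listed at 0 in both reporter libraries and stood at 11.4 to 13.7 in Ngn3-negative, so the pseudocount sets their ratio. Nearest to the gastric genes' median pair were S100g (0.55), Gm29688 (0.63), Akp3 (0.72), Cyp2c29 (0.76) and Gm3054 (0.77). S100g, the calcium-binding protein of duodenal absorption, was at 87.9, 157.6 and 1186 scaled FPKM, and Akp3, an intestinal alkaline phosphatase gene, at 57.2, 88.1 and 672.6. These distances describe 3 libraries and say nothing of shared control.

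The genes next to the enzyme genes stood in various orders. Next to Pnlip on chromosome 19 lie Pnliprp1, 47.1 kb away and also highest in Ngn3-negative, and Pnliprp2, 77.9 kb away and highest in Ngn3-TOMATO. On its other side Gfra1, 196.6 kb away, was lowest in Ngn3-negative (29.1, 14.1 and 0.300 scaled FPKM). Ctrb1 is flanked by Zfp1 (16.5, 11.1 and 9.63 scaled FPKM) and Bcar1 (45.5, 63.5 and 82.5), the latter highest in Ngn3-negative, as was the next gene, Ldhd (0, 0 and 4.88). Efhd2, beside Cela2a, was at 74.0, 123.9 and 134.1. Fhad1, on the same side, was lowest in Ngn3-negative (5.67, 5.79 and 0.525), and Dnajc16, on the other, was at 13.4, 12.5 and 10.7. Cpa1 is flanked by Cpa5, listed at 0, and Cep41, under 4 in every library. Prss2 lies within the T cell receptor beta locus, 58.0 kb from Prss1, and 95.5 kb on the other side lies Trpv6, a calcium channel of absorptive cells, at 0.106, 0.638 and 7.02, also highest in Ngn3-negative. On chromosome 6 Antxr1, 9.83 kb from Gkn1, was at 0.0267 or less.

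Markers of other cells went both ways in the same contrast, with enterocyte and red blood cell genes lower in both reporter libraries. Of the 10 enterocyte genes, none of them at 0, 9 were at least 2-fold lower in each reporter library (10% and 13.8% of all genes). Ratios of sums were taken without a pseudocount, so they are not on the scale of the ratios above. For Ngn3-TOMATO over Ngn3-negative the log2 ratio of the sum was -2.29 for enterocyte genes, close to the -2.26 of the gastric genes. It was -4.86 for the enzyme genes (6.11 against 177.3, with Cela2a at its listed 0). The enzyme and gastric genes were picked on this contrast. The further genes of the exocrine pancreas and stomach lists stood at -0.51 and 4.60, sums that rest on few genes. Gast made 676.7 of the stomach sum of 894.8 in Ngn3-TOMATO and was listed at 0 in Ngn3-negative. Clps and Spink1 together made most of the pancreas sums in these libraries. The median log2 ratios of the further genes were -1.11 and 0.54. Red blood cell genes summed to 41.2, 66.5 and 253.7 in that order of libraries, and 4 of 5 measured were at least 2-fold lower in each reporter library, Alas2 being the exception. Lymphocyte genes summed to 483.7, 90.1 and 215.1. The part of each of these cell types in the results above was not tested.
Goblet and Paneth genes were higher in Ngn3-TOMATO, with log2 ratios of their sums of 2.47 and 2.10, and below 0 in GIP-GFP, at -2.53 and -1.14. Tuft genes stood at 1.04 in Ngn3-TOMATO and -1.62 in GIP-GFP. Stroma genes, with most of their sum from Vim, stood at 4.93 and 3.87. Of the stroma genes measured, only Vim and Pecam1 were higher in the reporter libraries, and Dcn was at 0.338, 0.616 and 1.23. Col1a1, Col1a2, Col3a1 and Acta2 were under 1 scaled FPKM in every library, so the sum is not a reading of stroma as a whole. In RNA from many cells, fewer cells of a type and less RNA per cell cannot be told apart.

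**Figure D4:**
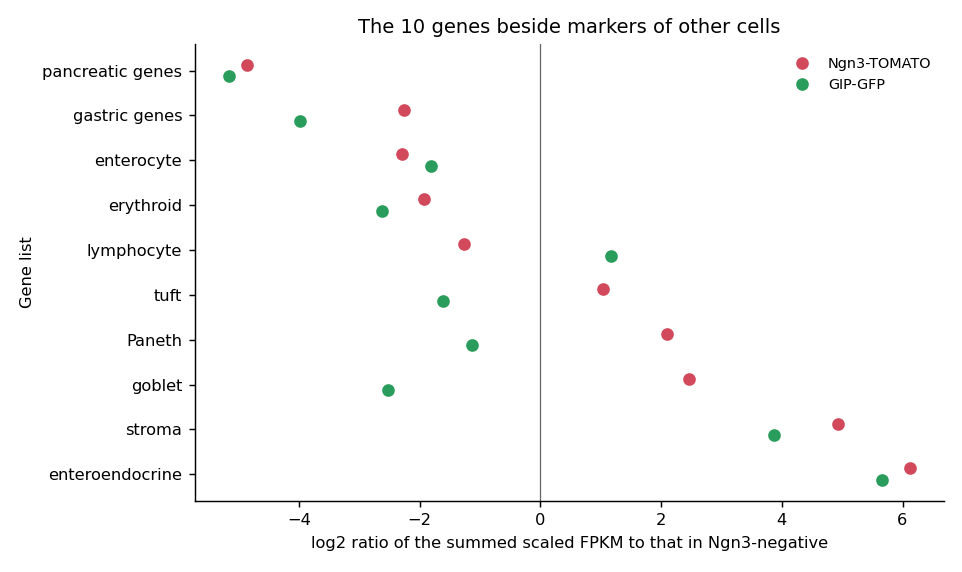
Log2 ratio of the summed scaled FPKM of each gene list to the sum in Ngn3-negative, for Ngn3-TOMATO (red) and GIP-GFP (green). No pseudocount was added to the sums, and most of the stroma sum is Vim. The enzyme genes, picked on this contrast like the gastric genes, are the lowest in both. The gastric genes lie beside the enterocyte genes in Ngn3-TOMATO (-2.26 and -2.29) and below them in GIP-GFP (-3.98 and -1.81).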

How the data were processed

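Polyadenylated RNA was measured in 3 libraries, 1 per group, with TopHat 1.5.0, Cufflinks and mm10 named in the submitters' processing notes. The authors deposited, per the file headers, FPKM with limits and coverage (a depth signal) for 59120 UCSC transcripts, and the spliced length of each. Within each library FPKM kept 1 ratio to coverage, and it summed to about 1.016e+10 in GIP-GFP, so its library term is not the one its name states. Transcripts were matched to GENCODE M21 (51258 with a symbol, 341 of them through RefSeq) by an end within 5 bases, or by overlap and length of at least 0.5. Listed starts count from 0, since 27644 equal an annotated start once 1 is added and 2396 do as listed, and were raised by 1. Transcripts under 200 bases, mitochondrial ones and those with too many reads were left out. FPKM was summed per symbol and divided by 8146. Genes at 1 in either library were compared after a pseudocount of 1. With 1 library per group there is no test. Limits were taken as 2 standard errors, and squared values over squared errors gave estimated fragments. The calculation was tested on simulated data. Python 3.11.15, pandas 2.3.3, numpy 2.4.6 and matplotlib 3.10.9 were used. The genes and lists were chosen with earlier results of these data known. Named were the 10 genes, genes of the exocrine pancreas and stomach lists (for values, those past 4-fold or most abundant, and others chosen after their values were seen), 5 nearest genes per group and neighbours.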

Additional observations from a re-analysis of the deposited data

How the results depend on the processing

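Every gene compared (10 against Ngn3-negative, 7 between the reporters) kept its direction under the 8 alternatives tried: pseudocounts of 0.1 and 5, equal totals, median ratio scaling, all transcript lengths, the most abundant transcript, shared transcript ends and no filter. Dropping the filter cannot move a gene that had passed it, and the zeros of Cela2a fix its direction. Prss2, under the minimum between the reporters, was slightly higher in GIP-GFP (0.684 against 0.652). Against Ngn3-negative, 79 of 80 alternative values in Ngn3-TOMATO and 80 of 80 in GIP-GFP were at least 2-fold lower, the exception being Gkn3 at -0.94 with a pseudocount of 5. Between the reporters 32 of 56 were. The pseudocount moved the medians. With 0.1, the enzyme genes stood at -4.18 in Ngn3-TOMATO and -5.01 in GIP-GFP over Ngn3-negative, and the gastric genes at -5.04 in GIP-GFP over Ngn3-negative and -1.79 over Ngn3-TOMATO. With 5, the enzyme genes stood at -2.41 in both, and the gastric genes at -2.16 and -3.15, and at -0.88 between the reporters. Genes past 2-fold with a pseudocount of 5 numbered 2399 (3912 with 1) for Ngn3-TOMATO and 3062 (4677) for GIP-GFP over Ngn3-negative, and 1271 (2302) between the reporters. Equal totals moved the median of all genes in Ngn3-TOMATO over Ngn3-negative from 0.03 to -0.20 and the share of higher genes among those past 2-fold from 65.7% to 53.2%. Leaving out Cela2a, an alternative added after seeing the data, gave -3.58 and -3.82. No paired analysis was possible because each group holds 1 library. Estimated fragments of 3 to 12 limit the enzyme genes in GIP-GFP.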

Other observations

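Insulin genes, the product of the endocrine pancreas, were also read. Ins2 was at 55.6 scaled FPKM and Ins1 at 7.42 in Ngn3-TOMATO, and both were listed at 0 in GIP-GFP and in Ngn3-negative, the library in which Prss2, Ctrb1, Cela2a, Cpa1 and Pnlip were highest. Iapp, another gene of the insulin-producing cell, was at 565.8 in GIP-GFP cells, 527.0 in Ngn3-TOMATO cells and 7.49 in Ngn3-negative cells.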
